A study of Mus musculus with 2 samples.

Results

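The complement members examined here were 9 genes: the C1q chains C1qa, C1qb and C1qc, which start the classical pathway, the downstream components C3, C4b and Cfb, and the receptors and inhibitors C3ar1, Serping1 and Cr1l. They were chosen from earlier results on the same PS cDKO and control intensities that are given below, so every value is a description and none was tested. All probe sets paired with exactly 1 symbol among the members were taken, which gave 10 probe sets for 7 genes, out of 12418 probe sets and 8251 singly named genes on the array. No probe set was paired with C3 alone or with C4b alone in the table used here, so neither has a value. The C1q chains had 4 probe sets, the downstream components 2, both for Cfb, and the receptors and inhibitors 4.

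The samples were total RNA of cerebral cortex of mice at 6 months of age, hybridised to 1 oligonucleotide array for presenilin conditional double knockout animals (PS cDKO) and 1 for controls. Presenilins are the catalytic subunits of the membrane protease γ-secretase. The labels name neither the alleles that the control mice carried, nor the promoter behind the conditional deletion, nor whether an array held RNA of a single animal or of a pool. As background, Cre recombinase in the published line of this name is driven by the Camk2a promoter, which is active in excitatory neurons of the postnatal forebrain. Psen2, a presenilin gene, gave intensities of 94.9 in the PS cDKO and 105 in the control, both under the floor described next, and so did not check the genotype.

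Intensities are linear and in the units of the deposited table. For a log2 ratio, PS cDKO over control, the PS cDKO array was first raised by 0.034 on the log2 scale, and intensities under a floor of 232 were set to that floor. A probe set is called doubly detected here where it passed the floor on each array. The floor is a percentile of signal and not a detection call, so passing it does not show that the transcript was present. Where it passed on a single array its ratio is a bound, given as "at least" or as a bound. With 1 array per genotype there is no replicate error, no p-value and no test of any difference below. The only repeated measurement is that of further probe sets for the same gene, and in 749 genes with a doubly detected pair the log2 ratios implied an SD of 0.21 per probe set.

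Complement is a cascade of plasma and tissue proteins that marks surfaces for uptake or lysis. C1q, assembled from A, B and C chains, recognises its targets and activates the C1 proteases, which cleave C4 and C2 and lead to cleavage of C3. The alternative pathway amplifies that step through factor B. In the brain C1q is made largely by microglia, and in the developing mouse visual system C1q and C3 tag synapses for removal by microglia that carry complement receptor 3.

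The genes of the C1q chains lie side by side on mouse chromosome 4. RefSeq promoter windows of the build GRCm38.p6, from 250 bases before to 50 after the start site, were matched for 5 of the 9 members, namely C1qb, C1qc, C3, C3ar1 and Cr1l. Those of the matched C1q chains are shown because these neighbours were both higher in the PS cDKO, at chr4:136886151-136886450 (minus strand) for C1qb and chr4:136892865-136893164 (minus strand) for C1qc. Capitals mark the motif GAGGAA on either strand, a core of sites for ETS factors such as PU.1.
C1qb: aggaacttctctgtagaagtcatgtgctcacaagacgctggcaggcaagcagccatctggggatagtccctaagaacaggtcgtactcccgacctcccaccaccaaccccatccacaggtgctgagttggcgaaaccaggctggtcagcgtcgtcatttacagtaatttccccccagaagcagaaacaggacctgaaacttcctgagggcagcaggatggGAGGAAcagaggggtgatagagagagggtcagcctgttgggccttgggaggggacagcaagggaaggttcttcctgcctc
C1qc: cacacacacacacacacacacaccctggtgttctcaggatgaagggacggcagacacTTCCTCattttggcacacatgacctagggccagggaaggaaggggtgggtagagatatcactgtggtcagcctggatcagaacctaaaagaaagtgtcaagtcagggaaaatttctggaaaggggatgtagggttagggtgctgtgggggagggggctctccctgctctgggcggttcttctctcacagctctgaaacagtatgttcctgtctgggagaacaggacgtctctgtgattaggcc
The motif was found once in each of these windows, from 30 to 25 bases before the start site of C1qb on the gene's strand and from 193 to 188 bases before that of C1qc on the opposite strand. It was absent from the other 3 member windows and present in 28.3% of the 32851 windows in the table. The motifs GAAANNGAA (interferon response), TTCNNNGAA (STAT) and GGGNNTTCC (NF-κB), searched on both strands, matched none of the 5 member windows, against 8.56%, 8.30% and 5.82% of all windows. A match is a match of letters and says nothing about binding in these mice.

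Under this floor C1qa, C1qc and a probe set of C1qb had the highest log2 ratios among the members, while with no floor C3ar1 lay above C1qa and C1qc. C1qa, the A chain, had an intensity of 1098 in the PS cDKO and 532 in the control, a log2 ratio of 1.08 or 2.11-fold. It ranked 2 among the 7091 doubly detected probe sets. C1qc, the C chain, had 1109 in the PS cDKO and 686 in the control, a log2 ratio of 0.73 or 1.66-fold, and ranked 27 among the same 7091. Within its own array, the C1qa signal lay at the 90.7th percentile of all probe sets in the PS cDKO and at the 70.0th percentile in the control.

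C1qb, the B chain, was read by a pair of probe sets that differed widely. The brighter of the pair gave 657 in the PS cDKO and 218, under the floor, in the control, so that it was at least 2.90-fold higher, with a bound of 1.54 on the log2 scale. It has a value only because the PS cDKO signal passed the floor, so its direction was fixed by that filter. With no floor it was 3.08-fold higher. The dimmer probe set lay just above the floor on both arrays, with 282.5 in the PS cDKO and 241 in the control, a log2 ratio of 0.26 or 1.20-fold. The log2 ratios of the pair differed by at least 1.28. Of the 749 genes with a doubly detected pair, which do not include C1qb, 1 had a gap as wide. The dimmer probe set has a suffix in its name, as do the brighter ones of Cfb and Cr1l. Such a suffix marks a design other than the array's plain one. Which of the pair gives the better reading of C1qb was not tested.

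**Figure D1:**
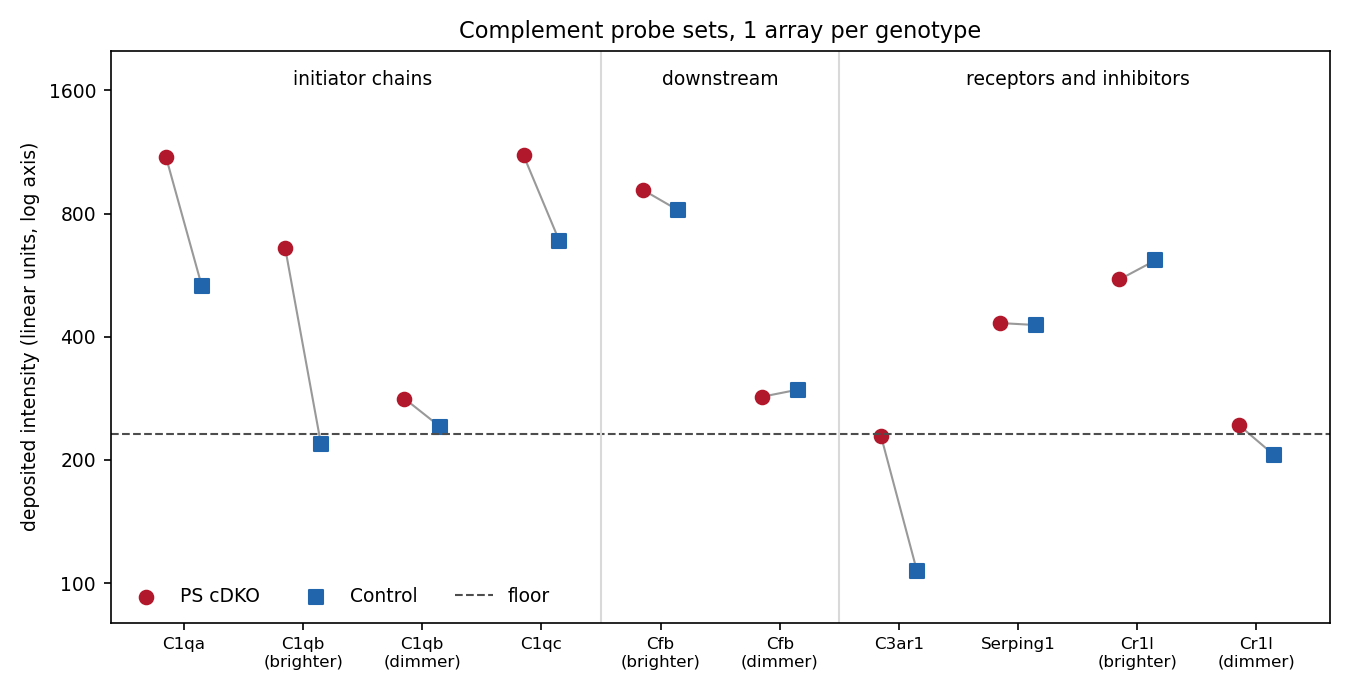
Deposited intensity of each complement probe set (log axis, linear intensity units) on the PS cDKO array (circles, left of each pair) and the control array (squares, right), grouped by role, with the floor of 232 as a dashed line. C1qa, C1qc and the brighter probe set of C1qb show the steep drops towards the control, C3ar1 drops as steeply at or under the floor, and the Cfb, Serping1 and Cr1l pairs are nearly level.

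Cfb, which encodes factor B of the alternative pathway, was the only downstream component with a value. Its brighter probe set had 915 in the PS cDKO and 814 in the control, a log2 ratio of 0.20. Its dimmer probe set had 285 in the PS cDKO and 297 in the control, a log2 ratio of -0.02. The pair lay on opposite sides of 0, and both log2 ratios were smaller than the SD of 0.21 between probe sets of a gene.

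Serping1, the C1 inhibitor, which blocks the proteases C1r and C1s, had 432 in the PS cDKO and 427 in the control, a log2 ratio of 0.05. Cr1l, also called Crry, a membrane inhibitor of C3 convertases in rodents, had 552 in the PS cDKO and 615 in the control at its brighter probe set, a log2 ratio of -0.12. Its dimmer probe set had 244 in the PS cDKO and 205 in the control, a bound of 0.11 on the log2 scale. With no floor that probe set had a log2 ratio of 0.28, the only value of either inhibitor past the SD of 0.21 between probe sets of a gene, and the brighter Cr1l probe set ran the other way.

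C3ar1, the receptor for the C3a fragment, carried by microglia and other myeloid cells, was at the limit of what the arrays could read. It had 228 in the PS cDKO and 107 in the control, and only after scaling did the PS cDKO signal reach 234, just past the floor. Its bound was therefore 0.01 on the log2 scale, whereas with no floor it was 2.18-fold higher. Of the 4582 probe sets under the floor on both arrays but above 0, 186 were at least 2-fold higher in the PS cDKO. Of the 7810 with a value, 11 were. Among those 4582, 64.8% were higher at all. They do not include C3ar1 and some lay far lower, so this is not the share at its own signal.

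By role, the 4 probe sets of the C1q chains had a median log2 ratio of 0.90, with 4 of 4 higher, the bound of C1qb included. The 3 of them that were doubly detected had a median of 0.73. The Cfb pair had a median of 0.09, which leaves out C3 and C4b. A probe set paired with both C4a and C4b, and so credited to neither, had 1020 in the PS cDKO and 637 in the control, a log2 ratio of 0.71, close to that of C1qc. The 4 probe sets of receptors and inhibitors had a median of 0.03, with 2 of them bounds, for C3ar1 and Cr1l. The 2 that were doubly detected had a median of -0.04, and with no floor all 4 had one of 0.17. The median over all 7810 probe sets with a value was 0.01. The median of the C1q chains was 0.87 above that of the other 6 member probe sets, with bounds counted on each side. Among doubly detected probe sets alone that distance was 0.71, and with no floor it was 0.78. At 1.5-fold or more, 3 of the 10 member probe sets were higher, all of them C1q chains and 1 of them that bound, where 1.31% of all probe sets with a value were. At 2-fold or more, 2 of the 10 were higher, one for C1qa and one for C1qb, where 0.141% of all were. None was at least 1.5-fold lower, where 1.18% of all were. With no floor 3 of the 10 were at least 2-fold higher, the third being C3ar1, where 1.73% of the 12387 probe sets above 0 on both arrays were. Since these intensities chose the members, nothing is read from these shares.

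**Figure D2:**
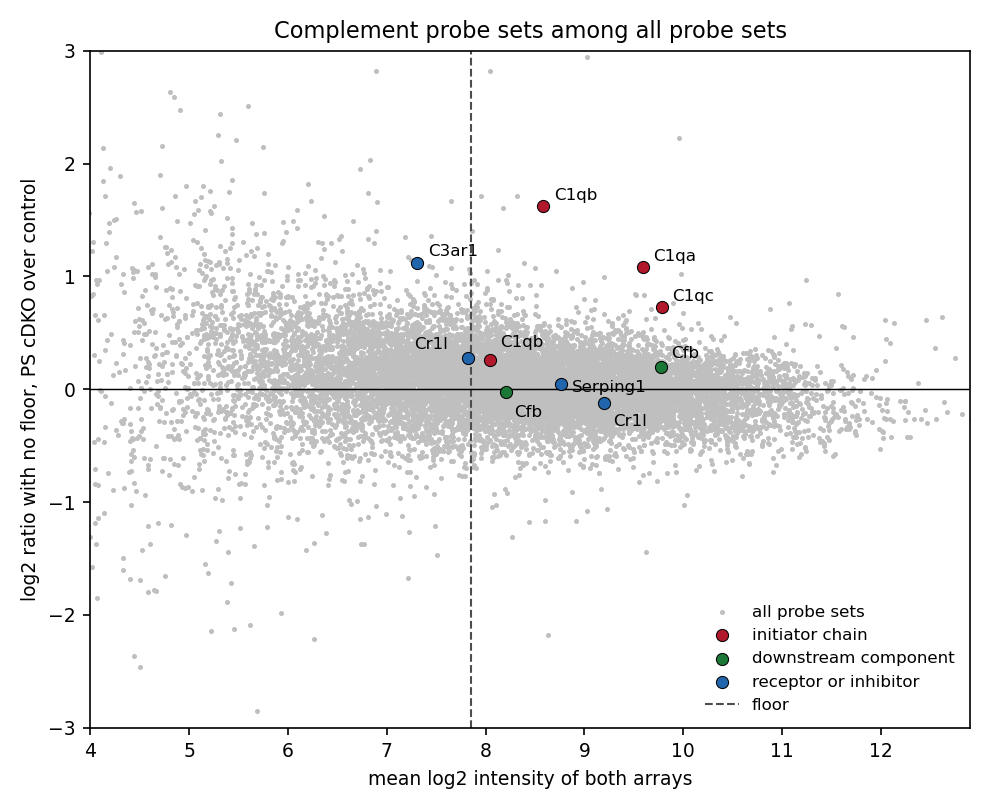
Log2 ratio of PS cDKO over control with no floor (vertical axis) against the mean log2 intensity of both arrays (horizontal axis) for all probe sets above 0 on both arrays within the plotted ranges (grey), with the complement probe sets coloured by role and the floor as a dashed line. C1qa, C1qc and a probe set of C1qb lie above the band of probe sets of like signal, C3ar1 lies left of the floor where the band is wide, and the others lie inside it.

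Of the wider pathway, with C1q-like proteins and neuronal pentraxins, 77 further genes were listed, and 40 had a singly named probe set. At the gene level 26 of them had a value, of which 13 were higher and 13 lower, with a median log2 ratio of 0.01. In that list 1 gene, Itgam, was at least 1.5-fold higher and none was at least 1.5-fold lower, where 1.94% of the 5885 genes with a value passed 1.5-fold in either direction. Itgam, the α chain of complement receptor 3, which binds the C3 fragment iC3b, had 608 in the PS cDKO and 387 in the control, or 1.61-fold. Its partner Itgb2, the shared β2 integrin chain, was under the floor on both arrays, with 129 in the PS cDKO and 122 in the control. Itgax, the α chain of complement receptor 4, had 746 in the PS cDKO and 582 in the control, a log2 ratio of 0.39.

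No singly named gene with a value at the other steps of the cascade reached 1.5-fold. Among C1 proteases, lectin pathway initiators and pentraxins, 6 genes had a value and their probe sets ran from -0.17 to 0.34 on the log2 scale. The highest was Fcna, a ficolin, with 546 in the PS cDKO and 441 in the control. C1ra, a C1 protease gene, was read by a pair of probe sets with log2 ratios of -0.17 and 0.29. C2, which is cleaved with C4 to form the classical C3 convertase, had a single value near 0. That probe set barely passed the floor, with 227 in the PS cDKO before scaling and 233 in the control. The other C2 probe set was under the floor on both arrays, with 142 in the PS cDKO and 91.8 in the control. With no floor it was 1.59-fold higher. The terminal genes C8g and C9 ran from -0.28 to 0.08, with C9 at 1178 in the PS cDKO and 1297 in the control. Whether the signals at these steps come from the transcripts or from background was not tested. The other regulators ran from -0.18 to 0.13, among them Clu (clusterin), with 3144 in the PS cDKO and 3293 in the control at its brighter probe set.

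**Figure D3:**
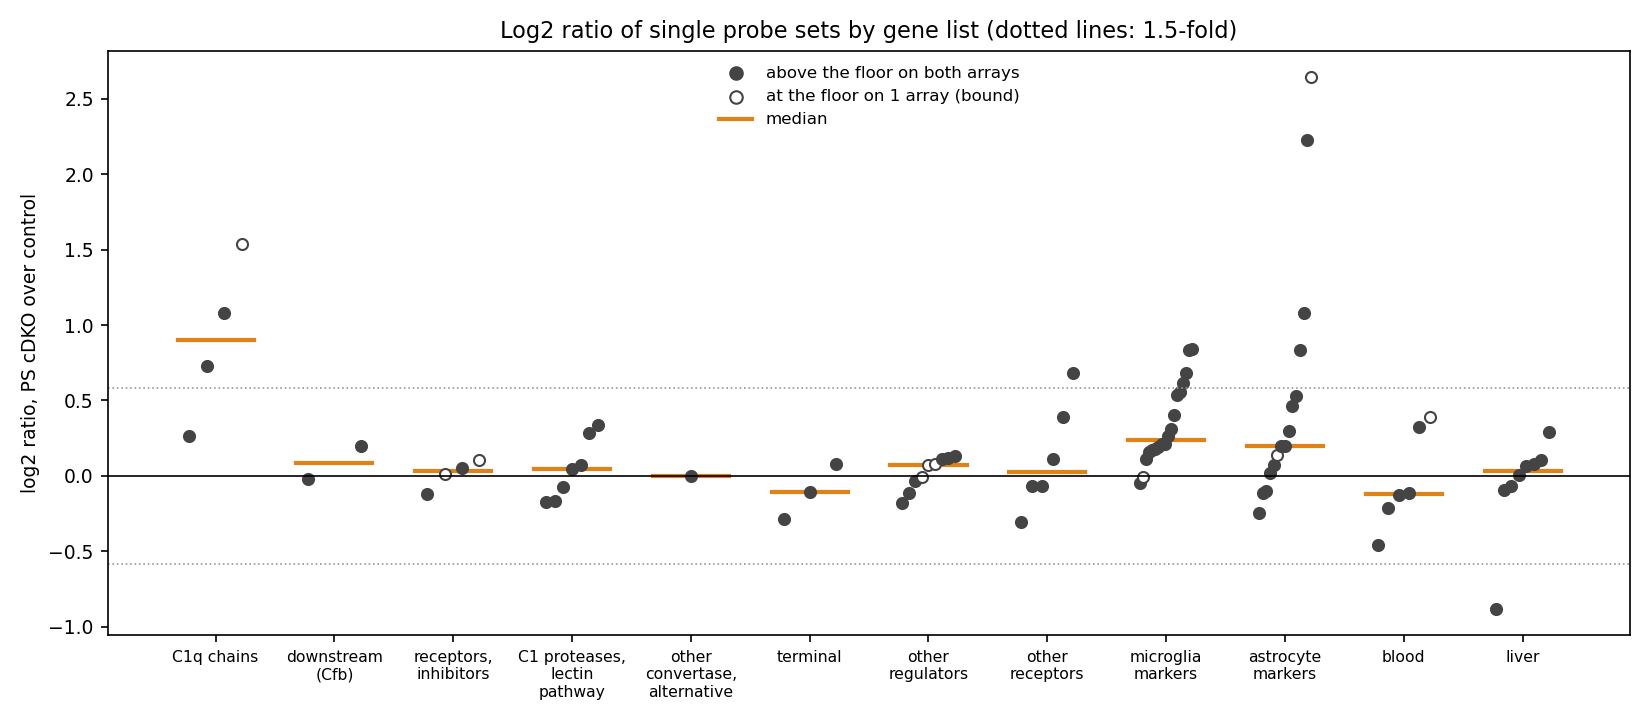
Log2 ratio of PS cDKO over control for each probe set with a value (filled, doubly detected; open, bound) by gene list, with the list median as a bar and dotted lines at 1.5-fold. The C1q chains have the highest median, 0.90, the other complement lists are centred near 0, and the microglia and astrocyte lists extend upward.

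C1q chains are largely microglial transcripts in brain, and microglia markers were therefore set beside them. Of 30 listed markers, 23 had a probe set, and 13 of their 31 probe sets were under the floor on both arrays. Of the 18 with a value 16 were higher in the PS cDKO, where 4088 of all 7810 were, with a median log2 ratio of 0.24 and a range from -0.05 to 0.84. The summed intensity of those 18 was 13234 in the PS cDKO and 10677 in the control. None of those 18 had a log2 ratio above that of C1qa, and 2 of them, for Ctss and Cst7, were above that of C1qc. The list holds Itgam and Itgb2 as well, and without them the median was 0.21. Of single markers, Aif1, Itgb2 and the transcription factor Spi1 (PU.1) were under the floor on both arrays. Csf1r and Cx3cr1 had log2 ratios of 0.31 and 0.18 at the probe sets above it. Cd14, Tyrobp and Lcp1 had 0.62, 0.55 and 0.54 at theirs. The 2 probe sets that were lower were one of Ptprc, at -0.05, and one of Fcgr1, a bound of -0.006. In RNA of whole cortex, more cells of a type and more RNA per cell cannot be told apart.

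Markers of other cell types whose RNA could carry complement transcripts were summed in the same way. Astrocyte markers had 12 of 15 probe sets higher, with a median of 0.20, a range from -0.25 to 2.64 and a summed intensity of 18242 in the PS cDKO and 15066 in the control. Gfap, the astrocyte intermediate filament, had 2095 in the PS cDKO and 458 in the control at the probe set that ranked above C1qa, or 4.68-fold, and a bound of 2.64 on the log2 scale at its other probe set. The probe sets of Gja1, a connexin, had log2 ratios of 1.08 and 0.02. Blood and myeloid markers had 2 of 6 higher, with a median of -0.12 and a summed intensity of 4810 in the PS cDKO and 5695 in the control. Genes of liver plasma proteins had 5 of 8 higher, with a median of 0.03 and a summed intensity of 5824 in the PS cDKO and 6231 in the control. The lowest was Ttr, with 415 in the PS cDKO and 782 in the control, a log2 ratio of -0.88. Endothelial, meningeal and choroid plexus markers had 8 of 11 higher, with a median of 0.05 and a summed intensity of 7510 in the PS cDKO and 7295 in the control. Excitatory neuron markers had 9 of 10 lower, with a median of -0.42 and a summed intensity of 12418 in the PS cDKO and 16648 in the control. Each sum and count is over the probe sets with a value, bounds included, and the direction of a bound was fixed by the floor. Among doubly detected probe sets, 10 of 13 astrocyte and 1 of 5 blood and myeloid probe sets were higher. So were 7 of 9 endothelial, meningeal and choroid plexus probe sets and 1 of 9 of excitatory neurons. The liver list held no bound. The part of any of these cell types in the C1q values was not tested.

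The probe sets most like C1qa in both log2 intensities were those of Cst7, a cystatin of activated microglia, Serpina3n, a reactive astrocyte gene for a protease inhibitor, Ctss, which encodes cathepsin S, Tmem129 and Tyro3, a receptor tyrosine kinase. Cst7, the nearest, had 1017 in the PS cDKO and 584 in the control, at a distance of 0.17 on the log2 scale. The 5 nearest to C1qc were Zbtb22, Mybbp1a, the astrocyte water channel Aqp4, Utp3 and 2410004B18Rik, with log2 ratios from 0.45 to 0.64. The likeness rests on 2 arrays.

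The genes with a value beside the C1q cluster had smaller log2 ratios than C1qa and C1qc, but they cover only its C1qa side. Of the 3 nearest protein-coding genes on each side in the RefSeq gene order, Epha8 and Wnt4 had a singly named probe set. Both lie on the C1qa side, and no gene on the C1qb side had one. Epha8, an ephrin receptor next to C1qa, had 710 in the PS cDKO and 785 in the control, a log2 ratio of -0.11. Wnt4, a Wnt ligand, had one of 0.33, above the 0.26 of the dimmer C1qb probe set. On chromosome 17, 5 genes between Cfb and C4b in the same order had log2 ratios or bounds from -0.30 to 0.22.

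Over 7 settings of scaling and floor C1qa ran from 1.05 to 1.10 and C1qc from 0.69 to 0.75 on the log2 scale. The brighter probe set of C1qb, a bound in all but 2 of them, ran from 0.74 to 1.62, and the dimmer one from 0.19 to 0.26 in the 6 settings that gave it a value.

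**Figure D4:**
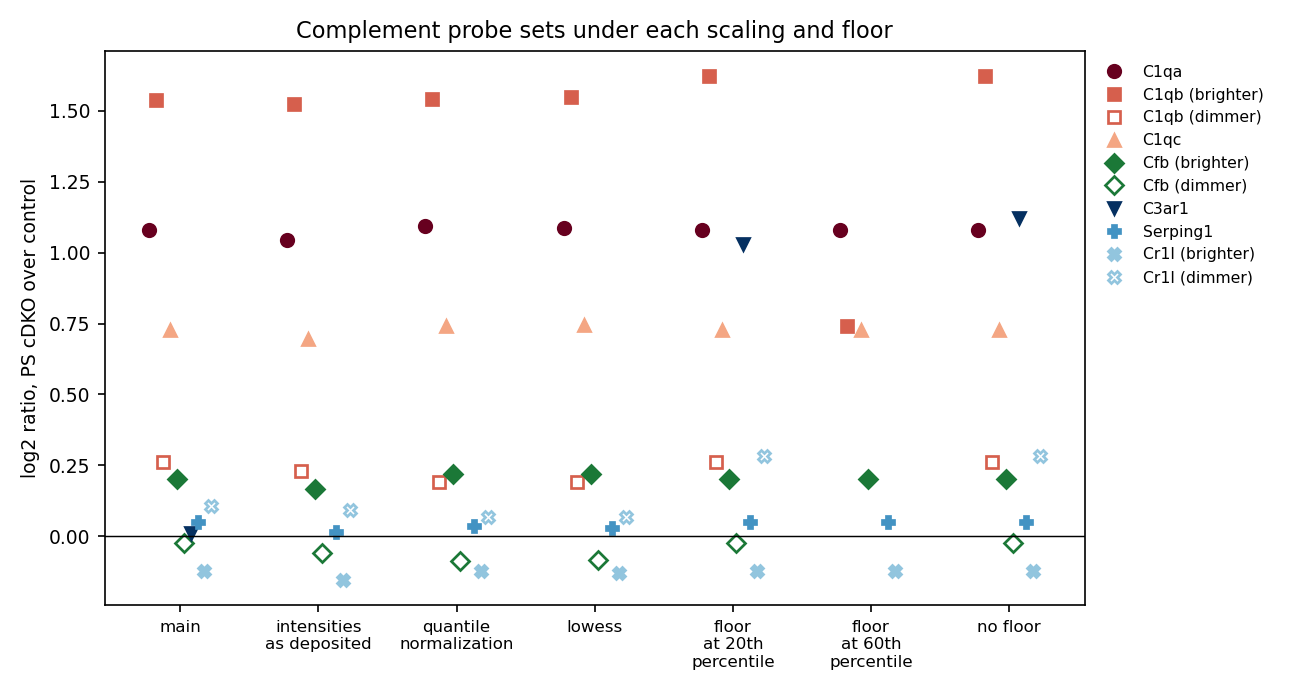
Log2 ratio of PS cDKO over control for each complement probe set under the main setting and 6 others that change the scaling or the floor. C1qa and C1qc lie between 0.69 and 1.10, and the brighter probe set of C1qb is 0.74, a bound, under the 60th percentile floor. C3ar1 is 1.03, a bound, with the lower floor and 1.12 with no floor.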

How the data were processed

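Cortical RNA was measured on 1 array per genotype. The deposited table gives 1 linear intensity per probe set and array. The software, background step and scaling were not given in the sources used here. The table has negative values (18 in the PS cDKO, 13 in the control), so the authors' processing before deposit included some subtraction. Medians were 305 in the PS cDKO and 300 in the control. No detection calls were used, and the number of arrays limits the precision.

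Probe sets were named by a platform annotation that can be old. All 7 member gene IDs were found in a RefSeq table of GRCm38.p6. The PS cDKO array was scaled to a median log2 ratio of 0 over probe sets above the median on both arrays. Intensities under the pooled 40th percentile were set to it. A gene's value averages its doubly detected probe sets, or its bounds where it has none. Differences were counted at 1.5-fold, with no test. Scaling and ratios were tested on simulated data.

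The members and lists were chosen with earlier results of these data known. The named genes were all members, complement genes at 1.5-fold or more, Itgam, Itgb2, the 5 most like C1qa and C1qc by distance over both log2 intensities, and map neighbours. Other genes named (Itgax, Fcna, C1ra, C2, C8g, C9, Clu and single markers) were chosen after their values were seen. Python 3.11.15, numpy 2.4.6, pandas 2.3.3, statsmodels 0.14.6 and matplotlib 3.10.9 were used.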

Additional observations from a re-analysis of the deposited data

Results flagged for a closer look

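A probe set outside the comparison of the members is paired by the annotation with both C4a and C4b, near-identical neighbours on chromosome 17, and so can be credited to neither. It had 1020 in the PS cDKO and 637 in the control, a log2 ratio of 0.71 or 1.64-fold, and ranked 28 among the 7091 doubly detected probe sets. It was flagged as signal in data that the comparison leaves out. A further probe set of the same pair of genes was far under the floor, with 26.9 in the PS cDKO and 12.99 in the control.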

How the results depend on the processing

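No paired analysis was possible because each genotype has 1 array, and no array could be left out. Across 11 other settings of scaling, floor, probe set choice and summary, the median log2 ratio of the C1q chains ran from 0.73 to 1.08, and its distance above the other members from 0.69 to 1.05. The median of receptors and inhibitors (-0.04 to 0.17) stayed near 0 and took either sign. The Cfb value ran from -0.02 to 0.20, and both ends came from settings that left a single Cfb probe set. Where both Cfb probe sets counted, their median ran from 0.06 to 0.09. Without probe sets that have a suffix in their name, the median of the C1q chains was 1.08 and the Cfb value -0.02. A value was taken as moved when it shifted by more than the SD of 0.21 between probe sets of a gene, or a count by over 1.5 times. Of single probe sets, the brighter one of C1qb became a bound of 0.74 under a 60th percentile floor. C3ar1 became a bound of 1.03 under a 20th percentile floor and 1.12 without a floor. With the floor at the 60th percentile, C3ar1 and the dimmer probe sets of C1qb, Cfb and Cr1l had no value. C3ar1 also had none with the intensities as deposited, after quantile normalization or after lowess (span 0.3). Counting the probe set shared by C4a and C4b, an alternative chosen after seeing the data, gave a downstream median of 0.20. That median is the log2 ratio of the brighter Cfb probe set. The others were -0.02 for the dimmer Cfb probe set and 0.71 for the shared one. The complement genes past 1.5-fold outside the members, 1, became 3 with no floor (Itgam, Adipoq and Cd55), 3 at a threshold of 25% (Itgam, Itgax and Fcna) and 0 at 2-fold. The array's probe sets at 1.5-fold or more, 102 higher and 92 lower, became 266 and 147 under the 20th percentile floor, 45 and 60 under the 60th, 787 and 337 with no floor, 701 and 719 at the threshold of 25%, and 11 and 13 at 2-fold. The causes beyond the height of the floor or threshold were not tested.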
